A study of Mus musculus with 12 samples.

Results

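Some probe sets of an exon array are annotated to more than 1 gene, so their signal cannot be given to any 1 of them. Of the 229581 probe sets in the exon-level table, 4446 carry several gene symbols. Setting aside 11 whose identifiers also serve as identifiers in the gene-level table left the 4435 shared probe sets described here; 209279 of the other probe sets have 1 symbol and 15856 are unnamed here. The arrays were Affymetrix Mouse Exon 1.0 ST arrays hybridised with total RNA of the cerebellum. The mutant group was 3 female NMF291–/– mice at postnatal day 30, which carry a deletion of 5 nucleotides in Rnu2-8, a gene for U2 snRNA. The wild-type group was 3 female mice of the same age, and every mouse had an array of its own. No strain is named in the sources used here, and the level of the mutated gene was not analysed here. The design text describes the 3 mice per genotype as biological replicates, and their number limits the precision.

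U2 snRNA is the small RNA of the spliceosome that base-pairs with intron branch sites. A probe set on this array type is a small group of short probes aimed at an exon or part of one. The same probes can carry several symbols when genes are recent duplicates with near-identical exons, when a processed pseudogene copies the exons of its parent gene, or when neighbouring genes overlap or are joined in read-through transcripts. Gene families that arose by local duplication, such as histones, kallikreins, olfactory receptors and chemokines, are examples of families with such duplicates.

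The 4435 probe sets carry 1230 different combinations of symbols. After outdated symbols were updated they named 957 sets of genes, each called a locus below; 302 loci had a single shared probe set and the largest had 49. Of the 1505 symbols, 1055 were current, 425 were updated through 1 synonym and 25 could not be matched to 1 gene. There were 2 symbols on 3393 probe sets and over 2 on 1042, with up to 12. The genes were neighbours on the same strand for 1142 probe sets, neighbours on opposite strands for 328 and neighbours whose strand is not listed for 750, where neighbours lie at most 100 kb apart. They lay apart on 1 chromosome for 927 and on different chromosomes for 890; 254 could not be placed, and 144 carried only older and newer names of 1 gene. A gene listed as a pseudogene was among the names of 935. The shared probe sets had a median level of 7.83 (log2) against 8.55 for all probe sets, and 39.7% of them lay at or above the table median. Those naming a pseudogene had a median of 9.17, and those naming genes apart on 1 chromosome one of 6.25; levels of different probes are not on 1 scale, so these medians describe signal and not abundance.

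The promoter windows below are shown because their genes carry changed probe sets described further on. Each window is the 250 bases before the annotated start of the gene, from RefSeq on GRCm38.p6, a later build than the mm8 the submitters' processing notes name. Capitals mark TATAAA, the core promoter TATA box, CCAAT, a site bound by NF-Y, and GGGCGG, a site bound by Sp1, all searched on both strands, and no hits overlap in the windows shown. They occur in 12.4%, 33.8% and 32.7% of the 32851 promoter windows of this length in the table. Cpne1 and Rbm12 start at the same base, so 1 window serves both, at chr2:156111966-156112215 on the minus strand. The Mbtps2 window lies at chrX:157598716-157598965 and the Yy2 window at chrX:157568986-157569235, both on the minus strand, with 42.0% of positions identical in alignment. The windows of Lyz1, at chr10:117292869-117293118, and Lyz2, at chr10:117282273-117282522, both on the minus strand, were 79.2% identical with a longest shared run of 50 bases. Those of Zfp942, at chr17:21962465-21962714, and Zfp944, at chr17:22361401-22361650, again on the minus strand, were 79.6% identical in alignment and shared a run of 157 bases.
Cpne1 and Rbm12: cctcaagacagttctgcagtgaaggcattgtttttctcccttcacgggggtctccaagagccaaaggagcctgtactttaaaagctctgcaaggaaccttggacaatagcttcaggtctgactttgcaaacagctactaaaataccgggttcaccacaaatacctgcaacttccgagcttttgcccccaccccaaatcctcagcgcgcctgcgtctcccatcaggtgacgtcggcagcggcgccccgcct
Mbtps2: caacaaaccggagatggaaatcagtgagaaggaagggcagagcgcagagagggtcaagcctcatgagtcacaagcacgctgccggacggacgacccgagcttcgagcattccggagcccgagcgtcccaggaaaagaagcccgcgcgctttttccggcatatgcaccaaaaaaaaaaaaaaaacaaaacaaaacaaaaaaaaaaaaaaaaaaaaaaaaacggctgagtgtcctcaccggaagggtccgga
Yy2: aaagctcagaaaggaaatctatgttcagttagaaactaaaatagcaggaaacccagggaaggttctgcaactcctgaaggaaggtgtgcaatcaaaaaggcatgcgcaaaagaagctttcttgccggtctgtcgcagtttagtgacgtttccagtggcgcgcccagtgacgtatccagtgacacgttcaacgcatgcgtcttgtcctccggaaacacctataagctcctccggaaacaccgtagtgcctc
Lyz1: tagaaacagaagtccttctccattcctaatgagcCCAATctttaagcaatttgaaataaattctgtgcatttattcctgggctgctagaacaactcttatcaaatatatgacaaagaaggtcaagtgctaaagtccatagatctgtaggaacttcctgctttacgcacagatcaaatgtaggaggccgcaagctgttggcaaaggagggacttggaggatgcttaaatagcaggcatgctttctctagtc
Lyz2: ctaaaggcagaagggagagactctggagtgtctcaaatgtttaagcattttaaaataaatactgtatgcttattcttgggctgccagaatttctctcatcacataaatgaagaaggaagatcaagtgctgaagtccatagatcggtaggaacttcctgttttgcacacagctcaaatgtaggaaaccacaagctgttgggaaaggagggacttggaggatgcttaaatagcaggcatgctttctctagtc
Zfp942: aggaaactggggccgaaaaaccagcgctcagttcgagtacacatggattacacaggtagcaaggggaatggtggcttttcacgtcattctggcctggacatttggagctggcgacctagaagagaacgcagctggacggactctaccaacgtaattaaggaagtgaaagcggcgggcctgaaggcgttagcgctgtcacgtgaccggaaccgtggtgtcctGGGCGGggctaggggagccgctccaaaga
Zfp944: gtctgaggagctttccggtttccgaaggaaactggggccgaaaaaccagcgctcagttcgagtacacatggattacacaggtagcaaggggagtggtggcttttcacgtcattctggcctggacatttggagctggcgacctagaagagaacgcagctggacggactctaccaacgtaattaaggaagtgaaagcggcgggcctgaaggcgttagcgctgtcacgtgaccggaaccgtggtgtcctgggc
One motif was found in the Lyz1 window and 1 in the Zfp942 window, and none of the 3 in the others.

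The main comparison asked which shared probe sets differ in level between the mutant and the wild-type cerebellum. Differences are mutant minus wild type on the log2 scale, and a probe set is called changed where limma gave an adjusted p (Benjamini-Hochberg over all 229581 probe sets) under 0.05. Of the 4435 shared probe sets 40 changed, or 0.902%, against 1.00% of the whole table. Of these, 30 rose (0.603% of the whole table did) and 10 fell (0.402% of the whole table). An unadjusted p under 0.05 was found for 14.9% of the shared probe sets and for 16.9% of the table, and the 2 genotypes' values did not overlap for 20.9%, against 24.1% of the table. Their median difference was 0.02, as in the whole table. By the share changed, the share with an unadjusted p under 0.05 and the share without overlap, the shared probe sets were slightly under the whole table. Their calls leaned more to rises than those of the whole table, where 1384 rose and 923 fell.

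The 40 changed probe sets belonged to 20 of the 957 loci, and 20 of them to only 3: 9 to the genes Cpne1 and Rbm12, 6 to the complement genes C4a and C4b and 5 to the chemokine genes of the Ccl21 group. In all 40 the genotypes did not overlap, and 13 differed by at least 1 (log2). Their adjusted p-values ran from 0.0145 to 0.0499. When any 1 of the 6 arrays was left out no shared probe set passed, nor did any other of the whole table. Of the shared ones 541 to 774 still had an unadjusted p under 0.05 by limma. The 40 differences themselves changed little without an array, to between 0.825 and 1.19 times their value. Their signs could not turn, because the genotypes did not overlap in any of the 40. Each kept an unadjusted p under 0.05 by limma, but the 40 were chosen by their p on these same arrays. Of the 890 probe sets naming genes on different chromosomes 3 changed (0.337%, against 1.00% of the whole table). Of the 1142 naming neighbours on the same strand 15 changed (1.31%), and 9 of these 15 belong to Cpne1 and Rbm12. None of the 144 carrying names of 1 gene changed. Of these 144, 42 had an unadjusted p under 0.05 by limma (29.2%, against 16.9% of the whole table), and 19 of the 42 belong to Arid2. A difference between arrangements was not tested.

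**Figure D1:**
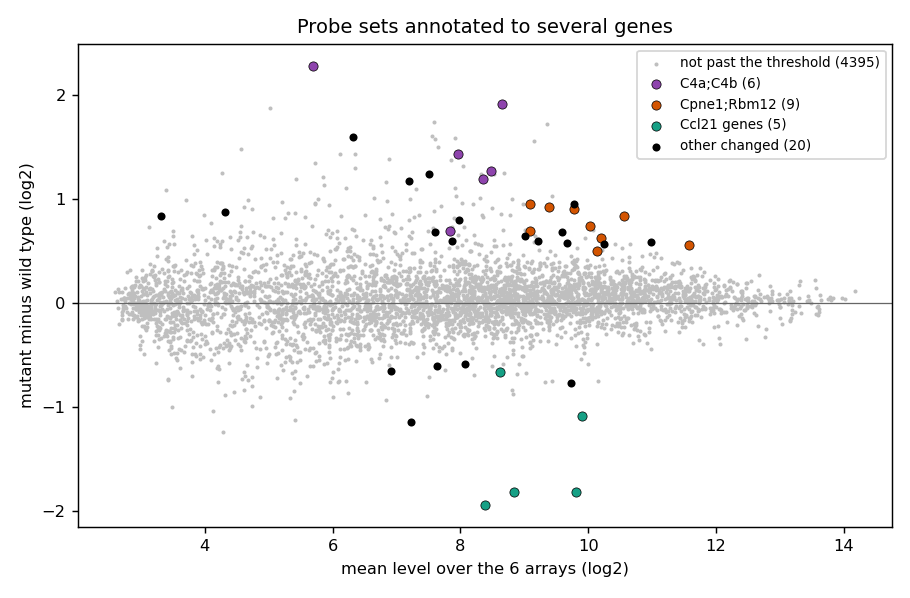
Each point is 1 of the 4435 shared probe sets, with its mean level over the 6 arrays (log2) on the x axis and the difference, mutant minus wild type (log2), on the y axis; coloured and black points are the 40 with an adjusted p under 0.05. Among these 40 the differences run from -1.94, for a Ccl21 probe set, to 2.28, for one of C4a;C4b.

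Probe sets shared by C4a and C4b had positive differences throughout, and 6 of them rose. C4 is the complement protein that is cleaved early in the classical pathway, and mice have 2 closely related genes for it on chromosome 17, of which C4a is listed as a pseudogene in the RefSeq table. All 31 probe sets naming both had a positive difference, with a median of 1.00 and a range of 0.05 to 2.28. An unadjusted p under 0.05 was found for 28 of them. The largest rise among all shared probe sets was that of 4939893, at 6.27, 7.64 and 6.61 in the mutant arrays, against 4.67, 4.66 and 4.34 in the wild-type arrays. Its groups averaged 6.84 ± 0.71 in mutants and 4.56 ± 0.18 in wild types (SD, n = 3 each), so that it rose 4.85-fold (adjusted p = 0.0423). Probe set 4975008 stood at 9.49, 10.23 and 9.12 in the mutants, against 7.63, 7.74 and 7.74 in the wild types, a rise of 1.91 ± 0.26 (log2, SE; adjusted p = 0.0379). In both, and in the locus as a whole, mutant replicate 2 was the highest array and no mutant array reached down to the wild-type values. The median over the 31 probe sets was 8.65, 9.31 and 8.57 in the mutants and 7.75, 7.84 and 7.88 in the wild types.

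The other changed C4a;C4b probe sets were 5154076, which rose by 1.43, 5414893, by 1.26, 5579267, by 1.19, and 4396319, by 0.69. At the other end, 5164270 and 5373468 differed by 0.05 and 0.06, with overlapping genotypes. In the wild type 5164270 read 9.70, 9.63 and 9.89. Probe sets annotated to C4b alone, 15 in number, all had a positive difference too, with a median of 0.63 and 1 of them changed; C4a had none of its own. Microglia markers were higher on the same arrays. Of 10 listed genes 9 were measured at gene level and 5 rose, where 5.75% of all gene-level rows changed. All 9 had a positive difference, and their mean level ran from 8.34 to 8.78 in mutants against 7.84 to 7.93 in wild types. None of the 9 was near 0, the lowest having a mean of 7.003. Of 7 listed astrocyte and Bergmann glia markers 6 were measured, 1 rose and 4 had a positive difference, with a median of 0.01. Their mean level ran from 10.82 to 11.10 in mutants against 10.64 to 10.69 in wild types. The part of either cell type in the C4 values was not tested. More cells of a type and more RNA per cell cannot be told apart in bulk tissue.

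The Ccl21 group moved the other way. Ccl21 is a chemokine that guides cells bearing the receptor Ccr7, mainly lymphocytes and dendritic cells, and the mouse genome holds several near-identical copies of its gene on chromosome 4. The 6 probe sets naming Ccl21a, Ccl21b, Ccl21c, LOC100041504 and LOC100041593 were all lower in the mutant, 5 of them past the threshold, with a median of -1.45. Probe set 4720753 read 7.12, 7.67 and 7.43 in mutants and 9.39, 9.57 and 9.09 in wild types. It fell to 0.260 of the wild-type level, by 1.94 on the log2 scale (adjusted p = 0.0202). For 5444921 the arrays gave 7.66, 8.20 and 7.95 in mutants, against 9.64, 9.79 and 9.83 in wild types (adjusted p = 0.0181), and 5592878 gave 8.55, 9.28 and 8.84 in mutants, against 10.48, 10.83 and 10.83 in wild types (adjusted p = 0.0251). No mutant array reached the wild-type range in any of the 6, and mutant replicate 1 was the lowest in these 3. The falls of 4846435 and 5206134 were smaller, at -1.09 and -0.67, and 5099332, at -0.59, did not pass (adjusted p = 0.0818). These 6 are the whole chemokine list, and the genes in it have no probe set of a single symbol beside which they could be set. Choroid plexus markers had a negative difference in all 4 of the 6 listed genes that were measured, none of them called, and their mean level ran from 8.98 to 10.40 in mutants against 10.28 to 10.51 in wild types; their part in the Ccl21 values was not tested.

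**Figure D2:**
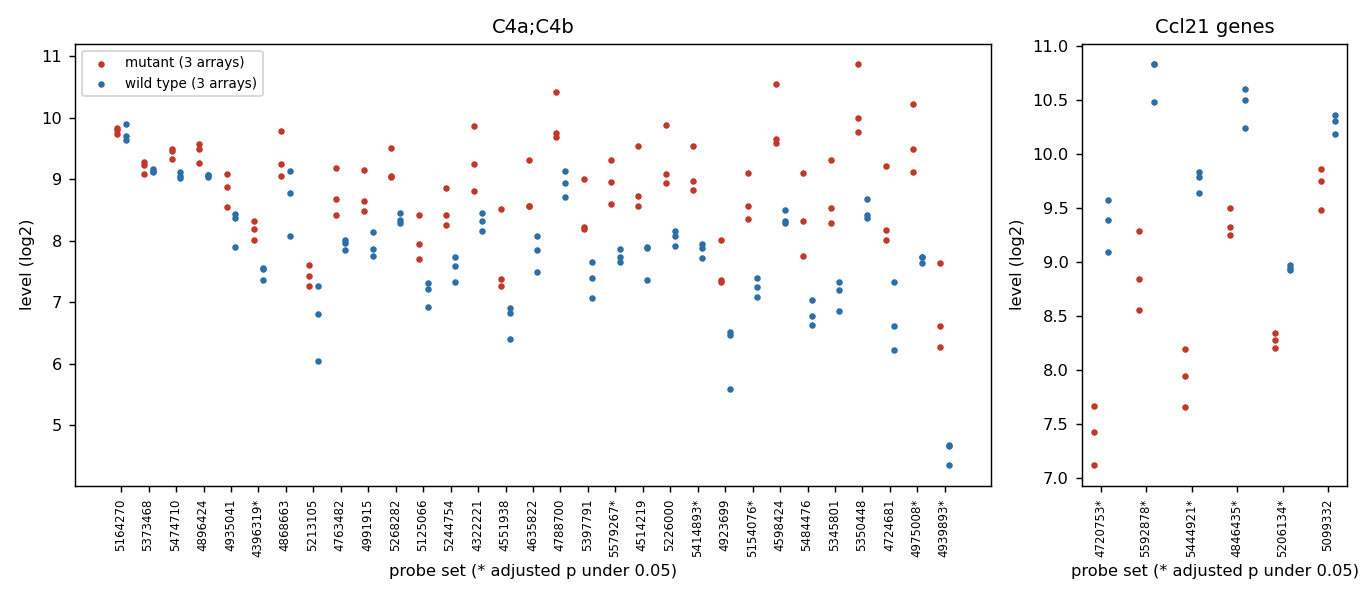
The level (log2, y axis) of every probe set shared by C4a and C4b (left) and by the Ccl21 genes (right) is shown for the 3 mutant arrays (red, left of each pair) and the 3 wild-type arrays (blue), with probe sets ordered by their difference and an asterisk at an adjusted p under 0.05. The 31 C4a;C4b probe sets have positive differences and the 6 of the Ccl21 genes negative ones.

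The locus with the most changed probe sets was that of Cpne1 and Rbm12 on chromosome 2. Cpne1 encodes copine 1, a calcium-dependent phospholipid-binding protein, and Rbm12 an RNA-binding protein; the genes start at the same promoter window, printed above. Of the 18 probe sets naming both, 9 rose and none fell, 17 had a positive difference and 16 an unadjusted p under 0.05. Their median difference was 0.60, and their median level was 10.49, 10.40 and 10.48 in mutants and 9.88, 9.94 and 9.88 in wild types. Probe set 4868227 read 9.78, 9.92 and 9.84 in mutants, against 8.90, 8.996 and 8.89 in wild types, a rise of 0.92 ± 0.08 (log2, SE; adjusted p = 0.0202). In 4747014 the values were 10.14, 10.31 and 10.23 in mutants and 9.16, 9.35 and 9.47 in wild types. The largest difference, 0.95, was that of 4778992, at 9.60, 9.52 and 9.59 in mutants against 8.79, 8.65 and 8.42 in wild types. The genotypes did not overlap in 17 of the 18, the exception being 5492501, which differed by -0.21.

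Probe sets annotated to Rbm12 alone did not show this rise. All 7 of them had a negative difference, with a median of -0.23, none changed and 3 had an unadjusted p under 0.05. On the arrays their median was 9.53, 9.55 and 9.52 in mutants, against 9.67, 9.52 and 9.72 in wild types, so the genotypes overlapped. The only probe set of Cpne1 alone read 11.0004, 11.06 and 11.17 in mutants and 10.34, 10.67 and 10.51 in wild types, a difference of 0.57 that did not pass. The Cpne1 probe set thus had a difference of the same sign as the shared ones, and the Rbm12 probe sets one of the opposite sign.

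**Figure D3:**
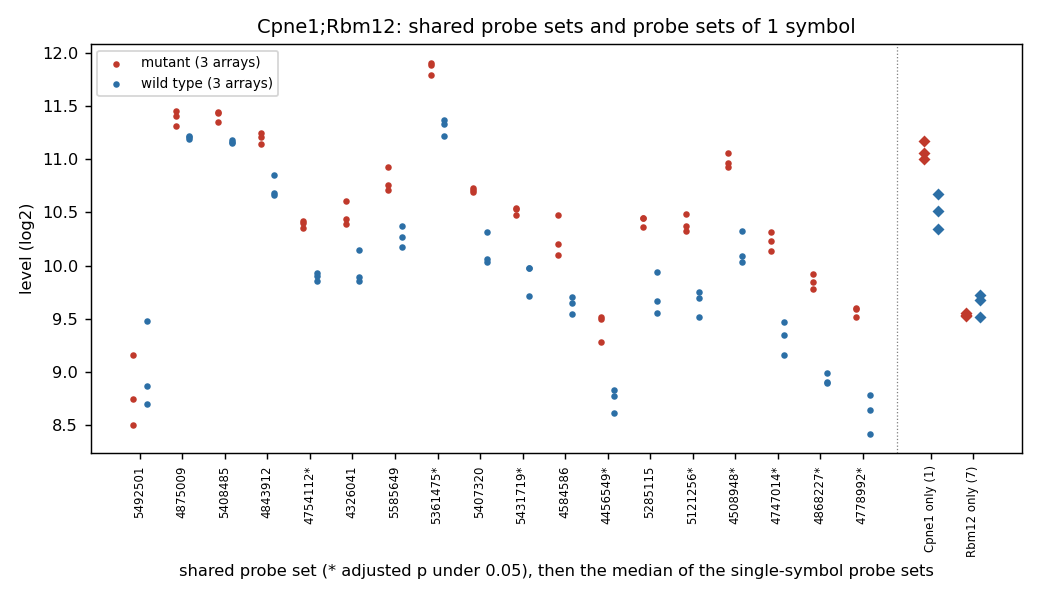
Circles give the level (log2, y axis) of each of the 18 probe sets shared by Cpne1 and Rbm12 on the mutant (red, left of each pair) and wild-type (blue) arrays, ordered by difference, with an asterisk at an adjusted p under 0.05; diamonds give the median, per array, of the probe sets of Cpne1 alone (1) and Rbm12 alone (7). The red points lie above the blue ones in 17 of the 18 shared probe sets and in the Cpne1 probe set, while the Rbm12 medians overlap.

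A second comparison asked whether a shared probe set moved unlike a gene it names. Per array, the median of the gene's other single-symbol probe sets (at least 3) was subtracted from the shared probe set, and limma was run on these values for 107746 probe sets, shared and single-symbol, with genes at or above the table median of 8.55 and probe sets at or above 7.06. Of 573 such pairs, covering 524 shared probe sets and 125 genes, 11 changed (1.92%, against 0.165% of all tested), 10 of them upwards. Of the 11, 9 were Cpne1;Rbm12 probe sets set against Rbm12, and of the 18 such pairs 17 had an unadjusted p under 0.05, as did 10.9% of all tested. Against its Rbm12 probe sets, 4868227 stood at 0.25, 0.37 and 0.32 in mutants and -0.77, -0.52 and -0.83 in wild types, a shift of 1.02 ± 0.10 (SE; adjusted p = 0.00714). The genotypes did not overlap. Pairs of 1 gene share that gene's median, so the 9 calls are not independent of each other. In the other 555 pairs 2 changed, or 0.36%, beside 0.165% of all tested. Both of the 2 met a level minimum only through the mutant arrays, as described below, so this share supports nothing. Without any 1 of the mutant arrays no pair passed, where 16 to 23 of all tested did, and 101 to 115 had an unadjusted p under 0.05. Without wild-type replicates 1, 2 and 3 in turn 6, 10 and 3 pairs passed, beside 146, 75 and 49 of all tested. With no minimum on level none of 2894 passed, nor did any of all tested, and 400 had an unadjusted p under 0.05 by limma.

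One of those 2 was in the locus of Mbtps2 and Yy2 on chromosome X. Mbtps2 encodes the site-2 protease, which releases membrane-bound transcription factors such as those of the SREBP family, and Yy2 is a zinc finger transcription factor gene that arose by retroposition inside Mbtps2. Probe set 4728222 read 7.79, 8.03 and 7.498 in mutants and 6.45, 6.85 and 6.51 in wild types, a 2.25-fold rise (adjusted p = 0.0401). It met the minimum level of 7.06 for the comparison with Mbtps2 only through the mutant arrays, so its call there supports nothing; its shift against the Mbtps2 probe sets was 1.28 ± 0.15 (log2, SE). The 8 probe sets of Mbtps2 alone all had a negative difference, with a median of -0.18, and none changed. Of the 14 probe sets naming both genes 13 had a positive difference, with a median of 0.22, but apart from 4728222 none passed; 4388470, at 8.04, 8.22 and 8.44 in mutants against 7.52, 7.62 and 7.38 in wild types, came nearest (adjusted p = 0.0589). Of the 14, the 6 at or above the median level of the table differed by at most 0.22.

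The other was 4971869, shared by Ubox5, a U-box ubiquitin ligase gene, and Fastkd5, whose product processes mitochondrial RNA. Relative to the Ubox5 probe sets, Ubox5;Fastkd5 probe set 4971869 stood at 0.71, 0.81 and 0.73 in mutants, against 1.29, 1.63 and 1.76 in wild types (shift -0.81 ± 0.12, adjusted p = 0.0421). Its own level differed by only -0.14 (adjusted p = 0.552), so the shift came with a higher median of the Ubox5 probe sets. The pairs that came nearest to the threshold in the downward direction were 4445064 and 4451171, both shared by the zinc finger genes Zbtb26 and Zbtb6. Their shifts relative to Zbtb26 were -0.61 ± 0.11 and -0.95 ± 0.18 (adjusted p = 0.0908 and 0.0981), and they did not pass. The Zbtb26 median, too, met the minimum for genes only through the mutant arrays. Probe set 5192665, shared by Lrch4 and Sap25, stood at 0.09, 0.01 and -0.19 relative to Lrch4 in mutants and 0.36, 0.50 and 0.41 in wild types and did not pass either (adjusted p = 0.124).

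Chkb, Cpt1b and the read-through transcript that joins them, named Chkb-cpt1b in the annotation, gave opposite directions on chromosome 15. Chkb encodes choline kinase beta, which makes phosphocholine, and Cpt1b the muscle form of the carnitine palmitoyltransferase that brings fatty acids to mitochondria. Of 15 probe sets naming Chkb and the read-through transcript, 14 had a positive difference and 2 rose. Probe set 5465185 read 10.33, 10.26 and 10.17 in mutants, against 9.25, 9.28 and 9.37 in wild types, a 1.93-fold rise (adjusted p = 0.0202), and 4861625 rose by 0.57 (adjusted p = 0.0361). Of 19 naming Cpt1b and the read-through transcript, 16 had a negative difference and 1 fell, 4665589, at 7.39, 7.24 and 7.36 in mutants and 7.96, 7.88 and 7.97 in wild types (adjusted p = 0.0377). The median differences were 0.33 for the first set and -0.19 for the second; the difference between the sets was not tested. The 3 probe sets of Chkb alone had a median of 0.13 and the 2 of Cpt1b alone one of -0.03, and none of these passed.

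Lyz1 and Lyz2 encode lysozymes, the first known from Paneth cells of the gut and the second from macrophages and other myeloid cells. Probe set 4558547, shared by both, read 8.20, 8.25 and 7.92 in mutants and 7.03, 6.87 and 6.75 in wild types, a 2.36-fold rise (adjusted p = 0.0224). Of the 9 probe sets of this locus it alone passed, while 5420425 differed by more, at 1.60 ± 0.32 (log2, SE), with mutant arrays at 7.90, 8.92 and 8.26 against 6.72, 7.24 and 6.31 in wild types (adjusted p = 0.0759). Probe sets of Lyz2 alone had a median difference of 0.79 (6 probe sets) and those of Lyz1 alone one of 0.24 (5 probe sets), none of them changed. The shared lysozyme probe sets thus lay between the 2 genes, with a median of 0.51.

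Lilrb4a and Lilr4b, annotated under the older symbols Lilrb4 and Gp49a, encode immunoglobulin-like receptors of myeloid and mast cells, one of them inhibitory. Their probe set 5332290 read 7.35, 7.49 and 6.52 in mutants, against 5.40, 5.59 and 5.59 in wild types, a 3.02-fold rise (adjusted p = 0.0479), and 6 of the 7 in the locus had a positive difference. Fcgr2b and Fcgr3, an inhibitory and an activating receptor for immunoglobulin G, share 4 probe sets, none of which changed; all 4 had a positive difference, with a median of 0.99, and no overlap of the genotypes. Probe set 4506598 read 9.09, 10.02 and 9.27 in mutants and 8.72, 8.41 and 8.39 in wild types (adjusted p = 0.126). As with C4a;C4b, mutant replicate 2 was the highest of the 3. Beside them, the probe sets of Fcgr3 alone had a median difference of 0.73 and those of Fcgr2b alone one of 0.37.

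Naip5 and Naip6, cytosolic sensors of bacterial flagellin, share 23 probe sets, of which 22 had a positive difference. Only 4654202, annotated as Birc1f and Naip5, rose, with 4.77, 4.98 and 4.51 in mutants against 3.95, 3.81 and 3.90 in wild types (adjusted p = 0.0443). Another rise was that of 4380234, shared by Cd200r4 and Cd200r2 of the CD200 receptor family of myeloid cells, at 3.90, 3.71 and 3.57 in mutants and 3.02, 2.87 and 2.80 in wild types (adjusted p = 0.0377). It had the lowest mean level of the 10 shared probe sets of its locus, at 3.31. Only 1 of these 10 changed, and 3 had a negative difference. The 7 probe sets of Cd200r2 alone had a median difference of -0.41, and none of them changed. The list of microglia and immune genes held 44 shared probe sets in 3 loci, those of C4, lysozyme and Fc receptors; 7 rose, beside 0.603% of the whole table, and the other 37 did not pass. The C4a;C4b locus holds 31 of the 44 and 6 of the 7 rises. The median difference of the 44 was 1.00, against 0.02 over the whole table. The microglia markers given with C4a;C4b moved with these probe sets as well, and their part was not tested.

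A further 3 changed probe sets name zinc finger genes under older or clone-based symbols, which the zinc finger list does not hold. Zfp942 and Zfp944, annotated as 6330416L07Rik and 3110048L19Rik, are KRAB-type zinc finger genes on chromosome 17. Their probe set 5615577 read 9.92, 9.91 and 9.96 in mutants, against 9.36, 9.23 and 9.16 in wild types (adjusted p = 0.0325), and 4864949 rose by 0.57 (adjusted p = 0.0477). All 8 probe sets of this locus had a positive difference, and 5121107 differed by 0.09. Probe set 4759463, shared by Zfp808 and Zfp935 under the symbols EG630579 and 8430426H19Rik, read 11.30, 11.36 and 11.19 in mutants and 10.76, 10.76 and 10.58 in wild types (adjusted p = 0.0493). All 6 probe sets of Zfp442 and Zfp937 had a positive difference and an unadjusted p under 0.05, with a median of 0.54, and none passed. In the zinc finger list itself, 27 of 35 shared probe sets had a positive difference and none changed. By limma 9 had an unadjusted p under 0.05 (25.7%, against 16.9% of the whole table).

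Ctu2 and Piezo1, annotated as 2310061F22Rik and Fam38a, lie on opposite strands of chromosome 8. Ctu2 encodes a subunit of the enzyme that thiolates certain tRNAs, and Piezo1 a mechanically gated cation channel. All 18 shared probe sets had a positive difference (17 after quantile normalization or median centring), with a median of 0.32, and 2 rose. Probe set 5121633 read 9.39, 9.25 and 9.37 in mutants, against 8.68, 8.63 and 8.77 in wild types (adjusted p = 0.0352), and 4906370 rose by 0.80 (adjusted p = 0.0471). Probe set 5330200 differed most, at 4.86, 5.94 and 5.13 in mutants and 3.72, 3.81 and 3.96 in wild types, without passing (adjusted p = 0.0622).

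Of the 3 changed probe sets that name genes on different chromosomes, 1 names histone H4 genes, described below, and the other 2 name a gene together with a symbol placed on another chromosome. Smarca5, the ATPase of ISWI chromatin remodelers, shares 5613565 with the symbol Vmn2r-ps14, and it read 7.97, 7.91 and 7.93 in mutants and 7.30, 7.22 and 7.26 in wild types, a 1.60-fold rise (adjusted p = 0.0260). Cop1, an E3 ubiquitin ligase annotated as Rfwd2, shares 4856469 with EG621205, at 9.59, 9.46 and 9.51 in mutants against 8.91, 8.88 and 8.99 in wild types (adjusted p = 0.0366). In both the genotypes were well apart and the replicates close. Rps13, a ribosomal protein gene, and its pseudogene had positive differences in all 11 probe sets, with a median of 0.21 and none changed. Probe sets of Nudc and its pseudogene, 5 in number, had a median of 0.29, all with an unadjusted p under 0.05 and none past the threshold. Among neighbours on the same strand, 5235029 of Lrch4 and of Sap25, which encodes a component of the Sin3A corepressor complex, rose by 0.59 (adjusted p = 0.0346), and the 5 probe sets of Lrch4 alone had a median of 0.32 with an unadjusted p under 0.05 in each.

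Apart from the Ccl21 group, 5 probe sets fell, counting 4665589 above. Klk1b21 and Klk1b24 are glandular kallikreins, serine proteases of a duplicated cluster on chromosome 7. Their 4770147 read 9.48, 9.32 and 9.24 in mutants, against 10.15, 10.13 and 10.09 in wild types, and fell by 0.77 on the log2 scale (adjusted p = 0.0285). Of the 21 shared kallikrein probe sets 20 had a negative difference, with a median of -0.43, but only this one passed. By limma 14 had an unadjusted p under 0.05 (66.7%, against 16.9% of the whole table). The next in the list, 5164970, naming Klk1b21, Klk1b22 and Klk1b24, read 8.60, 8.10 and 8.44 in mutants and 9.10, 9.38 and 9.30 in wild types (adjusted p = 0.0559). Probe sets of Klk1b24 alone had a median of -0.08 and those of Klk1b21 alone one of -0.14, none of them changed.

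Histone H4 genes share 15 probe sets that name 12 genes each after updating; H4 is a core histone encoded by many nearly identical genes. Probe set 4907485 read 6.70, 6.48 and 6.601 in mutants and 7.33, 7.30 and 7.12 in wild types (adjusted p = 0.0445), and 13 of the 15 had a negative difference with a median of -0.14. The median level of the locus was 11.53, and each of the other 14 differed by less than 4907485 did. Of all 93 shared histone probe sets this one fell, none rose and 92 did not pass. Probe set 5603228, naming 5 vomeronasal receptor genes of the Vmn2r family, read 6.64, 6.58 and 6.74 in mutants, against 7.85, 7.80 and 7.75 in wild types, with the lowest adjusted p of any shared probe set (0.0145). The other 4 of its locus differed by between -0.31 and -0.01 with overlapping genotypes, and it was the only one of 416 shared olfactory and vomeronasal receptor probe sets to change. Itga4, an integrin subunit of leukocytes, and Cerkl, a ceramide kinase-like gene, lie on opposite strands of chromosome 2. They share 4874046, at 7.77, 7.91 and 7.66 in mutants and 8.37, 8.39 and 8.34 in wild types (adjusted p = 0.0478). Of the 32 probe sets of this locus it alone passed. Among the 32, 24 had a negative and 8 a positive difference, over a range of -0.77 to 0.53.

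Of the 34 gene lists, 29 had at least 3 shared probe sets and 5 had none: beta protocadherins, immunoglobulin and T cell receptor genes, astrocyte and glial genes, ion channels, and receptors for glutamate, GABA and glycine. Calls came in 6 lists. The splicing regulator list had 9 rises among 63 shared probe sets, all of them the Cpne1;Rbm12 probe sets above, and the median difference of the list was 0.06. None of the 30 shared probe sets of spliceosome and snRNP genes changed and 3 had an unadjusted p under 0.05 by limma; 5320079, shared by U2af1l4, a relative of the small U2 auxiliary factor subunit, and Tmem149, read 6.09, 6.09 and 5.76 in mutants, against 5.33, 4.72 and 5.42 in wild types (adjusted p = 0.116). None of 150 ribosomal protein, 33 oxidative phosphorylation, 72 MHC and 147 cytochrome P450 probe sets passed, where 12, 1, 9 and 13 had an unadjusted p under 0.05.

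Some lists leaned one way without a call. Alpha protocadherins, neuronal cell-surface proteins made from a cluster with many alternative first exons, had a positive difference in 23 of 24 shared probe sets (22 after quantile normalization or median centring), with a median of 0.22; 6 had an unadjusted p under 0.05. Their 5075639, naming Pcdha6 and Pcdha2, read 7.18, 7.02 and 7.25 in mutants and 6.10, 6.64 and 5.68 in wild types (adjusted p = 0.101). In the gamma cluster 14 of 28 were positive and 14 negative. The 13 probe sets of the presynaptic list all name Vamp1, a synaptobrevin of synaptic vesicles, and its neighbour E130112N10Rik. All 13 had a negative difference with a median of -0.22, and 5202171 read 9.63, 9.76 and 9.75 in mutants, against 10.33, 10.04 and 10.001 in wild types (adjusted p = 0.141). Globin genes, which mark blood, had a median difference of 0.04 over 12 probe sets with overlapping genotypes in each.

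The plot of shared beside single-symbol probe sets compares them for the loci that had a changed probe set or at least 4 with an unadjusted p under 0.05, where a gene had 3 or more probe sets of its own and the symbols were not names of 1 gene. In the C4, Fc receptor, lysozyme and Zfp442 loci the genes' own medians lay on the same side of 0 as the shared ones. In 7 of the 23 loci a gene had a median of the opposite sign, among them Cpne1 with Rbm12, Mbtps2 with Yy2, and Gtf3c2 with Mpv17. In the last of these, the 35 shared probe sets had a median of 0.18, 32 of them positive and none changed, while the 6 of Mpv17, an inner mitochondrial membrane protein gene, had one of -0.12.

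**Figure D4:**
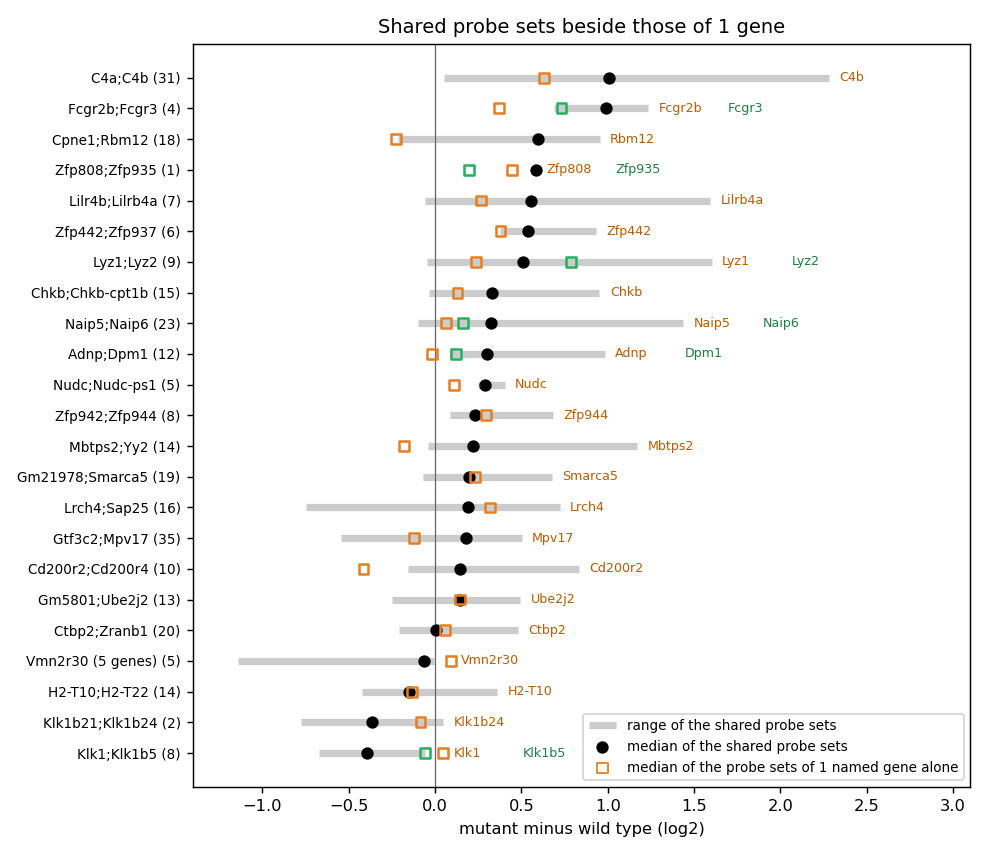
For each locus (number of shared probe sets in brackets) the grey bar spans the differences (mutant minus wild type, log2, x axis) of its shared probe sets, the black circle is their median, and squares are the medians of at least 3 probe sets of 1 gene alone, named beside the bar in the square's colour. The C4a;C4b median of 1.00 is the highest, and the Rbm12 square lies at -0.23 beside a shared median of 0.60.

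At gene level, where the same arrays are summarised per transcript cluster, 10 genes of the probe sets chosen by rule had a cluster with 1 symbol. Of these 2 fell, while 5.75% of all clusters changed; leaving out wild-type replicate 1 left 1, and leaving out any other array left none by limma, with 2 or 3 at an unadjusted p under 0.05. Hspa1a, an inducible heat shock protein gene, averaged 8.41 ± 0.02 in mutants and 8.79 ± 0.12 in wild types (SD, n = 3 each; adjusted p = 0.0389), beside differences of -0.53, -0.16 and -0.11 in the probe sets it shares with Hspa1l, none of which passed. Creb5, a CREB-family transcription factor gene, averaged 9.43 ± 0.06 in mutants and 9.71 ± 0.06 in wild types (adjusted p = 0.0470). Its 4 probe sets that carry a second, older name of the gene had a median difference of -0.57, led by 5054467 at 8.45, 8.52 and 8.18 in mutants, against 9.36, 9.31 and 8.996 in wild types (adjusted p = 0.0536). Over the genes of all shared probe sets, a choice made after seeing the data, 9 of 150 clusters changed, 6 upwards, among them Fcgr3 at 0.69 ± 0.14 (log2, SE; adjusted p = 0.0479).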

How the data were processed

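Per the labels' protocols, cerebellar RNA was extracted in TRIzol and labelled with a GeneChip WT kit for terminal labelling. Each of the 6 arrays was deposited by the authors at exon level (229581 probe sets) and at gene level (23332 rows) as normalized values, taken here to be on the log2 scale from their range. How they were normalized and summarised is not stated in the sources used here; the build, per the submitters' processing notes, is mm8. Gene symbols came from GEO's platform annotation and were updated through the RefSeq gene table, whose strands and gaps define neighbours. Its placement of genes in unassembled regions can be incomplete, so "apart" is approximate for some loci.

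Genotypes were compared in R 4.3.3 by two-sided tests of limma 3.58.1 (lmFit, then eBayes), with no filter on level and Benjamini-Hochberg adjustment over each whole table. The comparison with a gene's own probe sets used the same test on differences per array. Promoter windows were aligned with edlib 1.3.9.post1 under Python 3.11.15, and plots were drawn with matplotlib 3.10.9. On simulated data with the real tables' means and spread, 50 of 100 probe sets changed by 1 on the log2 scale and 90 of 100 changed by 2 were recovered, with 10 false calls. For differences from the gene, 97 and 100 of 100 were recovered, with 20 false calls.

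The genes, the lists and the tests were chosen with earlier results of these data known. Probe sets were named by rule: the 10 largest rises and 10 largest falls past the threshold with 1 per symbol set (filled by p), and up to 3 per gene list and 4 per arrangement by smallest p. For pairs the rule took the 5 largest differences per direction past the threshold (filled by p). Other probe sets of the loci described were named after their values were seen. Replicate numbers did not pair the arrays: same-numbered deviations correlated at -0.0069, -0.024 and 0.014. Alternatives were a replicate block, other filters on level, trended and robust eBayes, quantile normalization, median centring, an adjusted p under 0.1, each array left out in turn, chromosome 11 left out, and other choices of probe sets. The tables hold no detection calls, so dim probe sets could not be set against background.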

Additional observations from a re-analysis of the deposited data

How the results depend on the processing

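The count of 40 changed shared probe sets was 37 after quantile normalization and 34 after median centring (2262 and 2216 of all 229581). It was 34 without genes of chromosome 11 (1828 of all 212247 tested), although none of the 283 shared probe sets on that chromosome was among the 40. It was 0 with a replicate block, where 626 had an unadjusted p under 0.05 by limma, and 0 when any 1 array was left out. In each of these settings no probe set of the whole table passed either. The count was 177 of 1762 at or above the median level of the table (11.7% of all such probe sets) and 256 with trended and robust eBayes (6.78% of all). At an adjusted p under 0.1 it was 138 of 4435, beside 8188 of all 229581. Of the 40, 36 passed after quantile normalization, 33 after median centring and all with trended and robust eBayes. The level minimum leaves fewer and brighter probe sets to test. In the main fit 22 of the same 1762 changed (1.25%, against 1.37% of all such probe sets). The cause of the change in count was not tested for any setting. The count of 11 changed pairs of probe set and gene was 5 with the replicate block (58 of all 107746 tested) and 0 with no minimum on level (0 of all 208343). It was 19 with trended and robust eBayes (364 of all 107746) and 25 at an adjusted p under 0.1 (544 of all 107746). With an array left out it was 0 to 10 (16 to 146 of all tested). It was 2 without the Cpne1 and Rbm12 probe sets, a choice added after seeing the data. At gene level the count of 2 was 0 with the block (2 at an unadjusted p under 0.05 by limma), as was the count over all clusters. It was 0 to 1 with an array left out (76 to 496 of all clusters) and 9 over the genes of all shared probe sets. Of the named differences 6, none past the threshold, turned sign when 1 array was left out, with a range over the 6 arrays of -0.0693 to 0.7278 for 4962058 and -0.1246 to 0.0190 for 5576843 (both Krt6b;Krt6a), -0.0623 to 0.2344 for 4547041, -0.5287 to 0.0775 for 4898625 and -0.0969 to 0.2674 for 5381990 (all Hbb-b1;Hbb-b2), and -0.6073 to 0.0006 for 4699354 (Mup5;Mup2); 5381990 also gave -0.0096 without wild-type replicate 2. With 3 arrays a genotype, the adjusted p-values of the 40 lay between 0.0145 and 0.0499, and none of the calls held when any 1 array was left out.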

Other observations

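Several loci had differences of 1 sign in every probe set, none of them past the threshold. Arid2, a subunit of the PBAF chromatin remodeling complex whose probe sets also carry the name 1700124K17Rik, had a positive difference in all 23 probe sets with a median of 0.31, 19 of them with an unadjusted p under 0.05 by limma. Its median level was 10.79, 10.66 and 10.77 in mutants, against 10.51, 10.46 and 10.35 in wild types, with no overlap. Adnp, a homeobox gene of chromatin regulation, and Dpm1, which makes the mannose donor of glycosylation, had a positive difference in all 12 shared probe sets with a median of 0.30, while the 7 probe sets of Adnp alone had one of -0.02. In the opposite direction, all 19 probe sets of Acss2, an acetyl-CoA synthetase gene, and Myh7b, a myosin heavy chain gene, had a negative difference with a median of -0.25. Their median level was 9.60, 9.58 and 9.72 in mutants and 9.86, 9.91 and 9.90 in wild types. All 18 probe sets of Ermard and 9030025P20Rik had a negative difference as well, with a median of -0.29, and so were all 7 shared by the olfactory receptors Olfr239 and Olfr55, at -0.35. Of the 366 loci with at least 4 shared probe sets, 40 had only positive and 23 only negative differences; probe sets of a locus share transcripts and arrays and are not independent.

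Interferon-inducible genes of the Ifi200 family gave some of the larger differences that did not pass. They are not typical of the list of interferon-inducible families, which held 20 shared probe sets with a median difference of 0.14. Of these, 14 had a positive and 6 a negative difference, the lowest at -0.52. None of the 20 changed, and 4 had an unadjusted p under 0.05 by limma, as did 16.9% of the whole table. Probe set 4947587, shared by Ifi204, Mnda and Ifi205, read 7.39, 8.24 and 7.94 in mutants and 7.01, 6.58 and 6.69 in wild types (adjusted p = 0.0834), and 5050533, shared by Mnda and Ifi204, read 4.92, 5.66 and 4.92 in mutants, against 4.03, 4.54 and 3.96 in wild types (adjusted p = 0.121). In both the genotypes did not overlap and mutant replicate 2 was the highest array. Probe set 4968462, shared by the serine protease inhibitor genes Serpinb9f and Serpinb9g, varied widely among the mutants, at 7.03, 9.58 and 8.57, against 6.84, 7.09 and 6.76 in wild types, and the genotypes overlapped (adjusted p = 0.261).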
